A study of Mus musculus with 48 samples.

Results

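Immediate early genes are transcribed within minutes of a stimulus, before any new protein is made, and most of them encode transcription factors that drive later waves of expression. In neurons they respond to depolarisation and calcium entry, and they are widely used as markers of recently active or injured brain tissue. The 10 genes described here are Fos, Fosb and Junb, which form the dimeric AP-1 factor, the zinc finger factors Egr1, Egr2 and Egr4, the neuronal activity factor Npas4, the orphan nuclear receptor Nr4a1, Ier2, and Arc, an activity-regulated protein of the synaptic cytoskeleton that is no transcription factor itself. They were chosen as a named list, matched by symbol to 10 of the 46983 gene identifiers counted, and all 10 passed the filter of more than 10 counts over all libraries.

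Bulk RNA from the brain of 3-month-old male C57Black/6 mice was sequenced from the 3′ end of transcripts in 48 libraries of 11 groups. Permanent middle cerebral artery occlusion (MCAO), in which the artery was coagulated under isoflurane, was sampled at 3 h, 12 h, day 3 and day 7 (5 libraries each) and at 24 h (4 libraries), sham surgery without coagulation was sampled at the same 5 times (4 libraries each), and intact cortical tissue served as the control (4 libraries). All mice were perfused with cold buffer under pentobarbital. After MCAO damaged and spared tissue were not separated, and came from a cortical region in the labels and methods and, in another passage of the study, from most of the hemisphere on the operated side. In such bulk tissue fewer cells of a type cannot be told apart from less RNA per cell. The study describes replication over mice, but the labels tie no library letter to an animal or litter, and the p-values measure the spread between these libraries.

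The libraries held 1522668 to 2826735 counts on genes (median 1935856). Values are CPM, the counts of a gene scaled to library size with TMM factors, and each gene is compared only with itself, since they are not per gene length. Counts per library were 266 to 1261 for Egr1 but 0 to 43 for Egr2 and 0 to 31 for Ier2, which had under 10 counts in 29 and 26 of the 48 libraries. Differences between groups were fitted with edgeR, and a gene was called at an adjusted p under 0.01 with a log2 fold change beyond 0.58. Markers of cortical neurons summed to 374 to 1314 CPM over the libraries, and those of the striatum, which lies beneath the cortex, to 158 to 4087 CPM, with Drd2 of that list at 10 or fewer counts in all and not tested. In a set chosen after seeing the data, 5 libraries stood apart: sham 12 h A, MCAO 12 h A, MCAO 12 h D, sham day 7 B and sham day 7 D had Ctnnd1 at 0 to 2.60 CPM against at least 9.27 CPM elsewhere, and 3 of them (sham 12 h A, MCAO 12 h D and sham day 7 D) also had the lowest scores, -39.9 to -32.6, on the first component of variation within groups. Ctnnd1 has the largest weight of all genes on that component, so the scores partly restate the choice.

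The regulatory sequence just before the start site is shown for the 4 members with the largest fold changes at 3 h whose windows lay outside annotated exons, or overlapped one by 6 bases in Fosb. RefSeq windows (GRCm38.p6) were found for 7 of the 10 members, and 250 bases before the start are printed 5′ to 3′ on the gene's strand. Capitals mark TGACG or its reverse complement, the core of the cyclic AMP response element bound by CREB, the calcium-responsive activator of many immediate early genes.
Fosb, chr7:19310046-19310295, minus strand: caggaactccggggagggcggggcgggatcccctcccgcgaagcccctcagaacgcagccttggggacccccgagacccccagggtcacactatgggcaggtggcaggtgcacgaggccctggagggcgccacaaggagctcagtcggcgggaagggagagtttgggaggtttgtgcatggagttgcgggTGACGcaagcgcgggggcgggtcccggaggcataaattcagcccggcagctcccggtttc
Fos, chr12:85473640-85473889, plus strand: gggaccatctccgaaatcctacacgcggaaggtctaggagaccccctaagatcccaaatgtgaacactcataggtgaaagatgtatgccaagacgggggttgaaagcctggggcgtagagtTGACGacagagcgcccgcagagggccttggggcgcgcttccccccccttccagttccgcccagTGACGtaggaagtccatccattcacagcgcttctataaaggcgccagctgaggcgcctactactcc
Egr4, chr6:85513590-85513839, minus strand: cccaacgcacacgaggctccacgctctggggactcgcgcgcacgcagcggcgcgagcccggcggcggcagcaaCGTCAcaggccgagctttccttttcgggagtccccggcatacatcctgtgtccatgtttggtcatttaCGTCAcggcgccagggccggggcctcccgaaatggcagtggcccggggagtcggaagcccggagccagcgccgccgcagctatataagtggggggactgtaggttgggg
Junb, chr8:84978749-84978998, minus strand: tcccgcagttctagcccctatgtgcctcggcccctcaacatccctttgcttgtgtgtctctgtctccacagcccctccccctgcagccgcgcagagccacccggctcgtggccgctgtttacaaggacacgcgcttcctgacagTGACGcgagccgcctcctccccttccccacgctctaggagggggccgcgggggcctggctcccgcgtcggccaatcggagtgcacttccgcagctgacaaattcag

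In the Gencode annotation of GRCm38 the gene bodies span chr7:19302696-19310051 for Fosb, chr12:85473890-85477273 for Fos, chr6:85511121-85513589 for Egr4, chr8:84974484-84978718 for Junb and chr19:4984355-4990316 for Npas4. The core TGACG, searched on both strands, was found in 9 of the 11 windows of the 7 members that had any (Fos, Fosb, Junb, Egr2, Egr4, Npas4 and Nr4a1). Every one of the 7 had it, Egr2 in 3 of its 5 windows, and these 3 overlap one another. Of all 32851 windows of this length, 17.8% hold it. The Npas4 window lay within annotated exons over all 250 bases, and 1 Egr2 window over 61 bases. Counts of members below are by gene, whereas shares of all windows are by window. In Fosb it began 60 bases before the start, in Fos 129 and 66 bases, in Egr4 177 and 109 bases and in Junb 106 bases before. The full palindrome TGACGTCA was in 0 of the 7 members' windows and in 1.55% of all windows. GCGGGGGCG, a site of the EGR factors that form part of the same gene group, was in Fosb and Nr4a1 (2 of 7 members, 2.57% of all windows), beginning 50 bases before the Fosb start. The CArG box of serum response factor was in Egr2 only (1.47% of all windows), TATAAA in Fos only (12.4%), and neither TGANTCA, the AP-1 site (6.75%), nor GCGTGGGCG, another EGR site (0.536%), in any. These matches describe letters in the windows and say nothing of factor binding in this tissue.

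All 10 genes had their highest group mean at 3 h after MCAO, and also their highest group median. Fosb was the gene that passed the test there, with a mean of 196 ± 141 CPM (SD, n = 5) against 28.0 ± 9.63 CPM (n = 4) in sham and 16.1 ± 5.72 CPM (n = 4) in the control. The other 9 had positive but uncalled fitted changes over sham, from 0.49 for Ier2 to 2.86 for Npas4 on the log2 scale. The median over the 10 genes was 1.09, beside 0.00 over all 19970 genes tested.

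**Figure D1:**
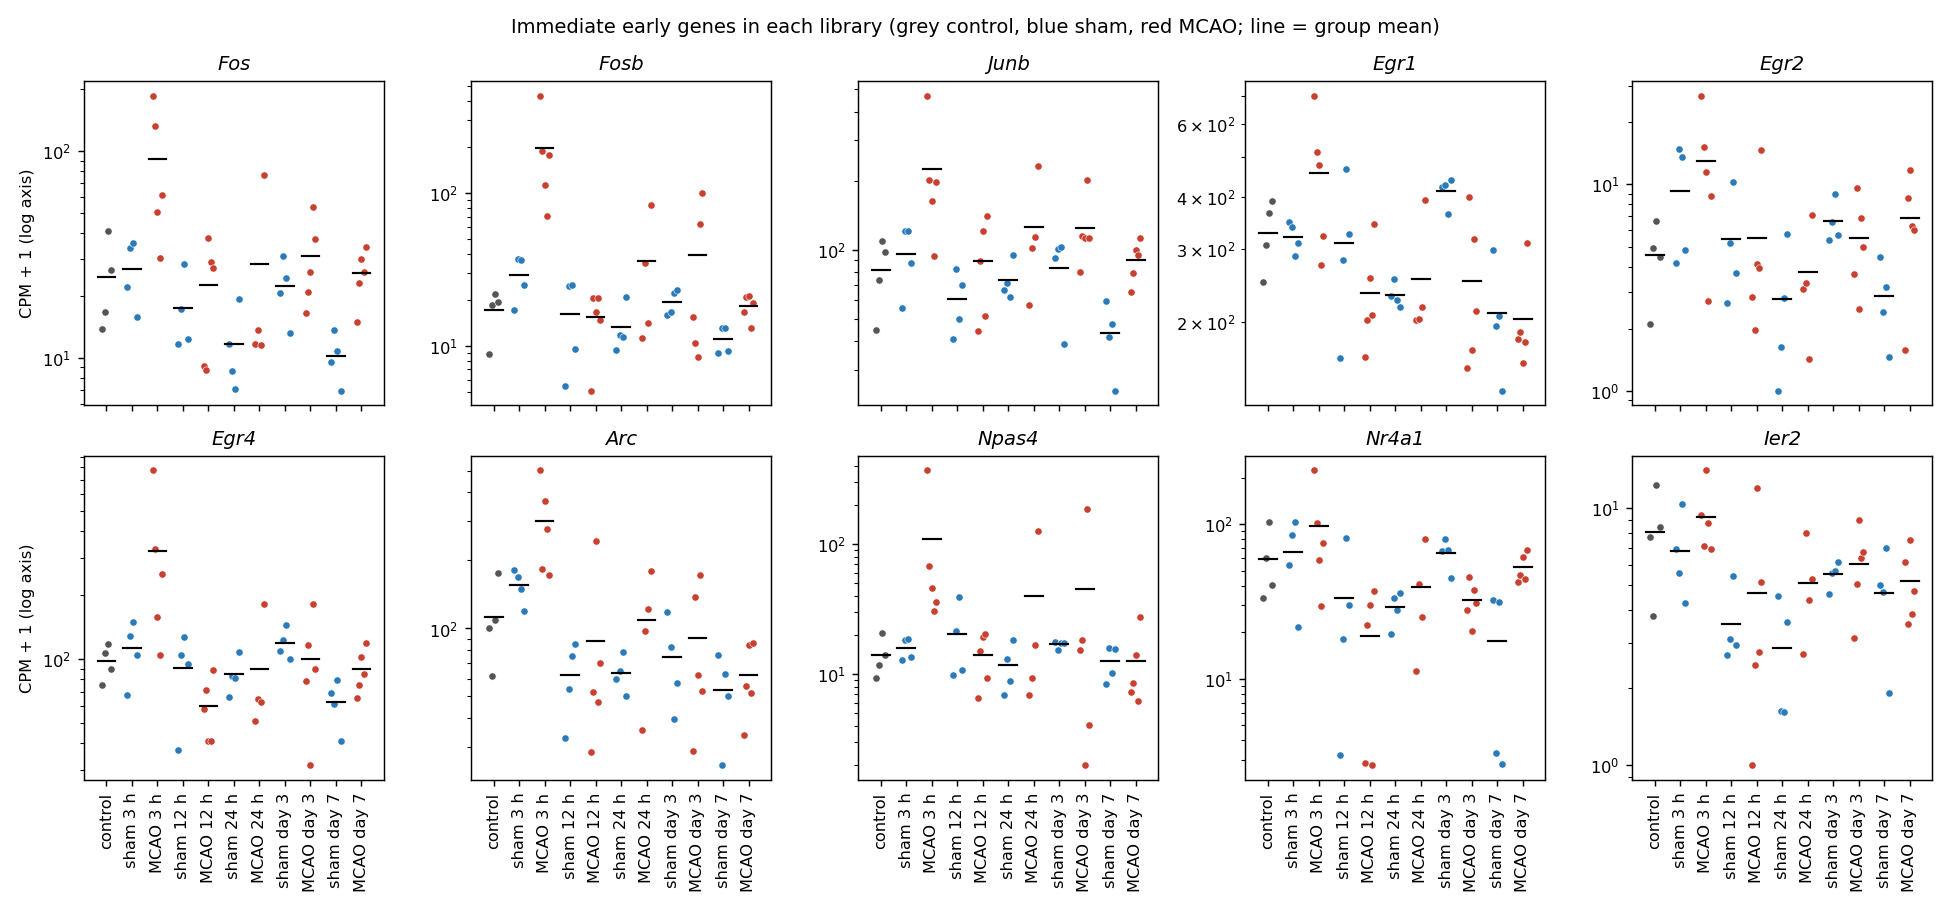
CPM + 1 on a log axis for the 10 genes in each of 48 libraries, by group in order of time (grey control, blue sham, red MCAO), with a black line at the group mean. The 5 libraries at 3 h after MCAO hold the highest mean of every gene, and for Fosb they lie between 70.2 and 433 CPM, above all 4 sham libraries of that time.

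Fosb encodes a partner of the Jun proteins in AP-1, and a shortened form of its protein is known for accumulating under repeated stimulation. Its 5 libraries at 3 h after MCAO read 433, 187, 112, 70.2 and 176 CPM (replicates A to E), and the 4 sham libraries 16.2, 36.3, 35.4 and 24.0 CPM. The groups did not overlap. The fitted log2 fold change was 2.81 (SE 0.54, 7.00-fold, edgeR adjusted p = 0.00647). It was 3.59 over the control (SE 0.57, adjusted p = 2.90e-04), whose libraries read 7.81, 17.4, 20.9 and 18.3 CPM. Against sham, the adjusted p rose past 0.01 when MCAO 3 h A (0.0455), MCAO 3 h B (0.0116), or sham 3 h A (0.0596), B (0.0284), C (0.0233) or D (0.0320) was left out, with log2 fold changes of 2.29 to 3.03 over all 9 omissions. Against the control Fosb remained called in each of the 9 omissions.

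Of the 10 genes, 1 (Fosb) was called over sham at 3 h, where 0.11% of all genes were called either way. At an unadjusted p under 0.05 there were 6 (Fos, Fosb, Junb, Egr4, Arc and Npas4), beside 8.45% of all genes. DESeq2 also called Fosb alone, beside 58 of all genes. The count was 4 with no filter on low counts (Fos, Fosb, Egr4 and Npas4) and 0 with the summed striatal markers as a covariate, chosen after seeing the data. Over the control 1 of the 10 was again called by edgeR (Fosb), beside 0.13% of all genes. By DESeq2 it was 2 (Fosb and Egr4), beside 80 of all genes. With no filter it was 5 (Fos, Fosb, Junb, Egr4 and Npas4), and the share of all genes called is not given for that setting. There 7 had an unadjusted p under 0.05 (Fos, Fosb, Junb, Egr2, Egr4, Arc and Npas4), beside 9.15% of all genes. The sham and control comparisons share the same MCAO libraries.

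Npas4, a transcription factor induced almost exclusively by calcium in neurons, had the largest fitted change. Its 5 MCAO libraries at 3 h read 366, 66.6, 44.9, 29.7 and 35.1 CPM and the sham libraries 11.9, 17.3, 17.5 and 12.5 CPM. All 5 were above every sham and every control library, and A was far above the other 4. The log2 fold change was 2.86 (SE 0.81, adjusted p = 0.131), and 1.57 without MCAO 3 h A (adjusted p = 0.640). The ranges of Fosb and Npas4 were the only 2 of the 10 that cleared sham in this way, and 2.27% of all genes did so.

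Fos, the founding member of its family, read 184, 131, 49.5, 29.3 and 60.6 CPM after MCAO and 21.0, 32.8, 35.0 and 14.7 CPM in sham at 3 h. Of the MCAO libraries 4 were above every sham library, and D was not. The log2 fold change was 1.80 (SE 0.48, 3.49-fold, adjusted p = 0.0946). Junb, a Jun protein that pairs with both, read 468, 201, 162, 93.0 and 196 CPM against 54.6, 120, 120 and 86.1 CPM, again with D inside the sham range. Its log2 fold change was 1.23 (SE 0.36, adjusted p = 0.157). Junb overlaps Prdx2 on the opposite strand, and whether the counting used strand is not given in the sources used here.

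Among the EGR factors, Egr4 had the largest change at 3 h. Its MCAO libraries read 773, 330, 156, 103 and 251 CPM and its sham libraries 66.8, 128, 148 and 104 CPM, with 4 of 5 above every sham library and D below 3 of them. The log2 fold change was 1.53 (SE 0.39, adjusted p = 0.0788) and 1.74 over the control (SE 0.40, adjusted p = 0.0251). Without MCAO 3 h A the change over sham was 0.91 (adjusted p = 0.518). Egr1, the most studied of the family, ranged from 273 to 700 CPM after MCAO and from 286 to 346 CPM in sham (log2 fold change 0.51, SE 0.26, adjusted p = 0.602). Egr2, better known for myelination by Schwann cells, ranged from 1.72 to 25.9 CPM and from 3.16 to 13.8 CPM, resting on 4 to 43 counts (0.51, SE 0.62, adjusted p = 0.895).

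Arc was between 172 and 500 CPM after MCAO at 3 h and between 119 and 181 CPM in sham, with 4 of 5 MCAO libraries above every sham library. Its log2 fold change was 0.95 (SE 0.45, adjusted p = 0.554). Nr4a1 ranged from 28.4 to 221 CPM and from 20.7 to 102 CPM (0.55, SE 0.58, adjusted p = 0.862), and Ier2 from 5.92 to 13.004 CPM and from 3.27 to 9.41 CPM (0.49, SE 0.52, adjusted p = 0.864). The 95% intervals, -0.58 to 1.69 for Nr4a1 and -0.53 to 1.51 for Ier2, spanned 0.

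**Figure D2:**
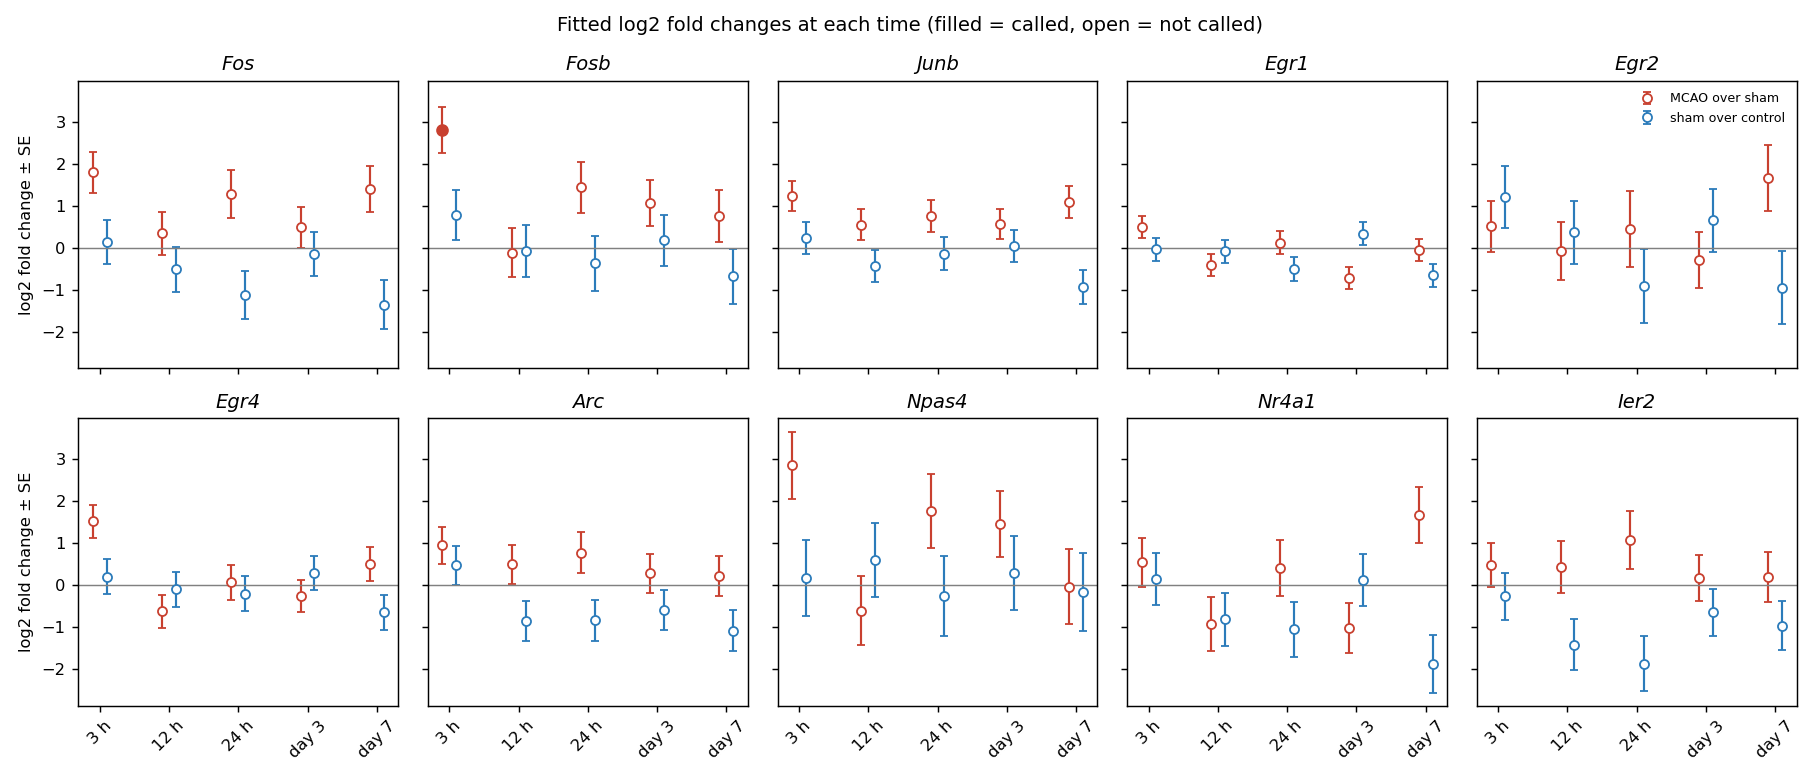
Fitted log2 fold changes with their standard errors (bars) for MCAO over sham (red) and sham over control (blue) at the 5 times, with filled points where the gene was called. The single filled point is Fosb at 3 h, at 2.81.

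MCAO 3 h A was the highest of all 48 libraries for 9 of the 10 genes, and MCAO 3 h C was for Ier2. Without A, the mean of the other 4 libraries was still the highest of all groups for 8 genes, with Fosb at 136 ± 55.0 CPM against 38.4 CPM in the next group (MCAO day 3). For Egr1 it fell to 395 CPM, below sham day 3 (412 CPM), and for Npas4 to 44.1 CPM, below MCAO day 3 (44.3 CPM). The log2 fold changes over sham without A were 1.38 for Fos, 0.78 for Junb, 0.69 for Arc, 0.48 for Ier2, 0.31 for Egr1, 0.041 for Egr2 and 0.0012 for Nr4a1, beside those given above for Fosb, Npas4 and Egr4. MCAO 3 h D was the lowest of its group for 8 genes. Ordered by mean, no gene had a pair of neighbouring groups whose libraries did not overlap, from top to bottom of the 11.

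Striatal markers differed between the same libraries. Their sum was 2394 CPM in MCAO 3 h A and 2306 CPM in B, and 367, 421 and 855 CPM in C, D and E, against 394 to 1534 CPM in sham, with 7 of 7 tested markers above 0 in fitted change, 0 called by edgeR, 0 at an unadjusted p under 0.05 and 0 by DESeq2. The part of tissue composition in these results was not tested. With the striatal sum as a covariate Fosb was 2.49 (adjusted p = 0.0103) and Npas4 2.09 (adjusted p = 0.289). Neutrophil markers summed to 13.3 to 65.5 CPM after MCAO at 3 h and 4.61 to 10.3 CPM in sham, with 7 of 7 above 0. Astrocyte markers summed to 4156 to 4536 CPM after MCAO and 4829 to 5065 CPM in sham, which did not overlap, with 1 of 8 above 0 in fitted change (median -0.07), 0 called by edgeR or DESeq2 and 1 at an unadjusted p under 0.05. The part of these 2 lists was not tested. Neuronal markers covered much the same range in both, 7867 to 9009 and 7702 to 9048 CPM.

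**Figure D3:**
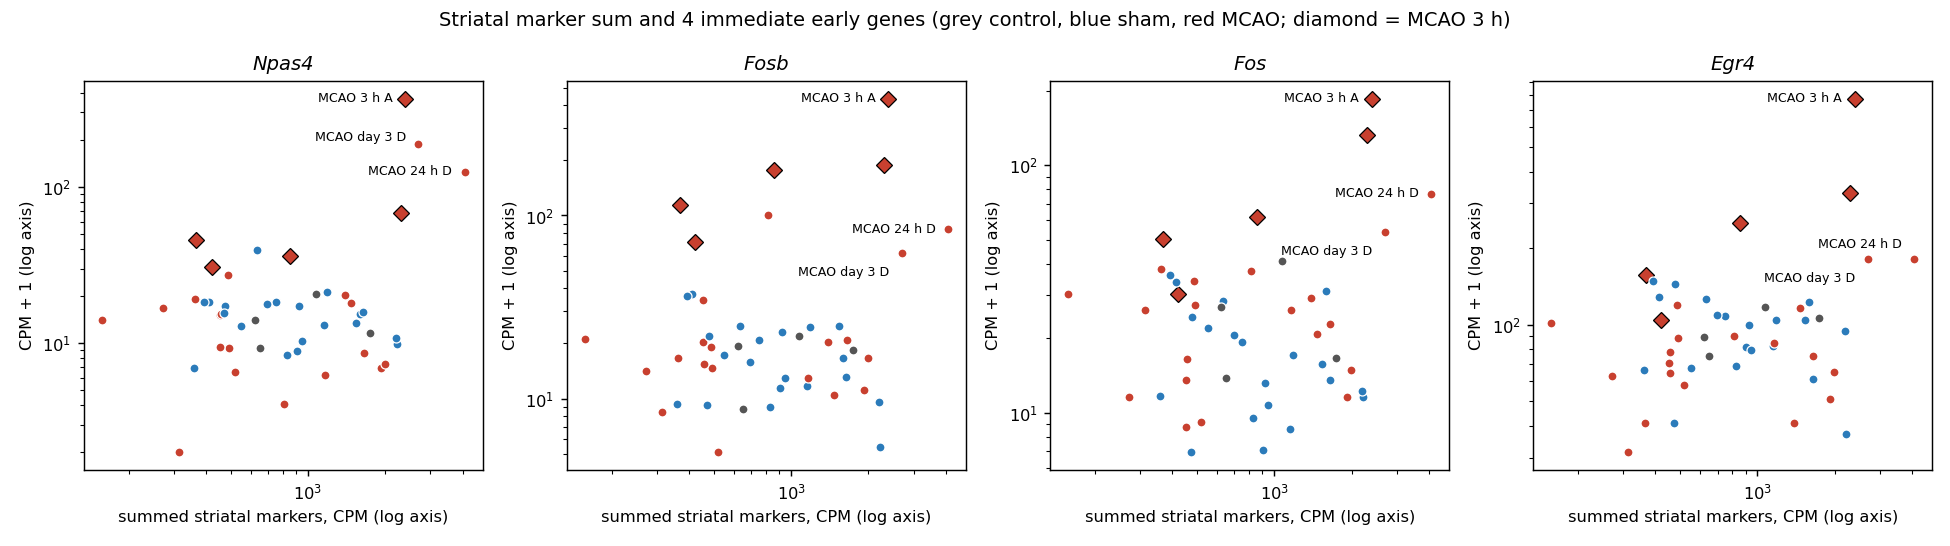
CPM + 1 of Npas4, Fosb, Fos and Egr4 against the summed CPM of the striatal marker list, both on log axes, in 48 libraries (grey control, blue sham, red MCAO, diamonds MCAO 3 h). MCAO 3 h A, MCAO 24 h D and MCAO day 3 D, with sums of 2394, 4087 and 2692 CPM, lie at the upper right for Npas4. Sham 12 h A and MCAO 24 h A, with sums of 2216 and 1921 CPM, had Npas4 at 8.94 and 5.95 CPM.

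At 12 h no gene of the 10 was called over sham by edgeR or DESeq2, and 0.411% of all genes were called. None of the 10 and 14.6% of all genes had an unadjusted p under 0.05. The median log2 fold change over the 10 was -0.10, beside 0.01 over all genes. Fosb had returned to 4.08 to 19.4 CPM after MCAO and stood at 4.47 to 24.0 CPM in sham. The ranges overlapped for every gene (2.03% of all genes cleared sham). Arc in MCAO 12 h C was 242 CPM against 27.4 to 69.1 CPM in the other 4. Marker sums differed at this time as well. Neutrophil markers summed to 12.2 to 1735 CPM after MCAO and 3.33 to 6.62 CPM in sham, and fibroblast markers to 82.9 to 177 CPM and 56.5 to 79.1 CPM, with 7 of 7 and 6 of 6 genes above 0 in fitted change. Fitted changes of the oligodendrocyte and striatal lists were above 0 for 0 of 7 genes each, with medians of -0.82 and -1.60. The markers called by edgeR were S100a8 (7.50) and S100a9 (8.42) of the neutrophil list, P2ry12 (-1.78) of the microglial list and Slco1a4 (-1.12) of the endothelial list. The part of these lists was not tested. Without the 5 libraries low in Ctnnd1 the 10 log2 fold changes ran from -0.75 for Npas4 to 0.93 for Ier2, and 0 were called. The fall of the MCAO over sham difference from 3 h to 12 h was itself tested with edgeR. It was -2.92 for Fosb (SE 0.78, edgeR adjusted p = 0.35), -2.14 for Egr4 (SE 0.55, adjusted p = 0.349) and -3.46 for Npas4 (SE 1.13, adjusted p = 0.542). By edgeR 0 of the 10 passed and 0 by DESeq2, beside 0.01% of all genes by edgeR. Of the 10, 5 had an unadjusted p under 0.05 (Fos, Fosb, Egr1, Egr4 and Npas4), beside 7.12% of all genes.

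At 24 h all 10 fitted changes over sham were positive, with a median of 0.77 beside 0.02 over all genes, and 0 were called by edgeR or DESeq2, beside 0.0901% of all genes by edgeR. Fos and Fosb (2 of the 10) had an unadjusted p under 0.05, beside 8.8% of all genes. MCAO 24 h D was the highest of its group for 9 of the 10 genes, with Npas4 at 124 CPM against 5.95 to 15.7 CPM in A to C, Fos at 75.8 against 10.6 to 12.6 CPM and Fosb at 83.1 against 10.2 to 33.7 CPM. For Ier2 the highest was B, at 7.01 CPM. Without D the log2 fold change of Npas4 went from 1.76 to -0.12 and that of Fos from 1.28 to 0.05. Those of Egr1 (-0.16), Egr2 (-0.20), Egr4 (-0.52) and Nr4a1 (-0.19) were then also below 0, while those of Junb (0.30), Arc (0.43), Fosb (0.59) and Ier2 (1.06) were above 0. The striatal sum of D was 4087 CPM, the highest of all libraries, its oligodendrocyte sum 4664 CPM and its cortical sum 374 CPM, the lowest. Between the groups, microglial markers summed to 495 to 670 CPM after MCAO and 342 to 431 CPM in sham, fibroblast markers to 121 to 222 and 64.0 to 112 CPM, neutrophil markers to 36.5 to 73.9 and 5.77 to 8.85 CPM, and astrocyte markers to 4036 to 4325 and 4876 to 5554 CPM, with no overlap in any of the 4. Fitted changes were above 0 for 6 of 8, 5 of 6, 6 of 7 and 3 of 8 genes of these lists. The part of these markers was not tested. No gene cleared the sham range (3.73% of all genes did), and 0 of the 10 differed from 3 h in the MCAO over sham difference by edgeR or DESeq2, beside 0.015% of all genes by edgeR. Egr4 (1 of the 10) had an unadjusted p under 0.05 there, beside 4.46% of all genes.

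At day 3, 4.02% of all genes were called between MCAO and sham, and 0 of the 10 by edgeR or DESeq2. Egr1 (1 of the 10) had an unadjusted p under 0.05, beside 21.6% of all genes. Egr1 was 154, 398, 170, 315 and 212 CPM after MCAO and 421, 425, 363 and 438 CPM in sham. Of the MCAO libraries 4 were below every sham library and B was not, and the log2 fold change was -0.72 (SE 0.26, adjusted p = 0.0740). Npas4 was 186 CPM in MCAO day 3 D and 0.999 to 17.2 CPM in the other 4, with 14.3 to 16.7 CPM in sham. Its log2 fold change was 1.47 (SE 0.78, adjusted p = 0.269), and -0.84 without D, whose striatal sum of 2692 CPM was the highest of its group. Fosb was 61.5 CPM in D and 99.2 CPM in E but 7.49 to 14.4 CPM in A to C, against 14.9 to 22.0 CPM in sham (1.07, SE 0.54, adjusted p = 0.237). No gene had every MCAO library above sham (4.33% of all genes did). Against 3 h, 0 of the 10 differed by edgeR or DESeq2 (0.26% of all genes called by edgeR), with 3 at an unadjusted p under 0.05 (Fosb, Egr1 and Egr4) beside 13.8% of all genes, and the values nearest the threshold were -1.23 for Egr1 (SE 0.37, adjusted p = 0.0827) and -1.79 for Egr4 (SE 0.54, adjusted p = 0.0885).

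At day 7, Fos, Junb and Nr4a1 had every MCAO library above every sham library, 3 of the 10 genes beside 5.38% of all genes, yet 0 of the 10 were called by edgeR or DESeq2 (3.5% of all genes called by edgeR). At an unadjusted p under 0.05 there were 4 (Fos, Junb, Egr2 and Nr4a1), beside 23.5% of all genes. Fos read 13.8, 21.9, 29.2, 25.0 and 33.2 CPM after MCAO and 8.58, 12.6, 9.81 and 5.93 CPM in sham (log2 fold change 1.41, SE 0.55, adjusted p = 0.101). Junb read 64.6, 77.9, 98.8, 94.0 and 111 CPM and 58.9, 40.6, 46.3 and 23.3 CPM (1.09, SE 0.38, adjusted p = 0.0607). In both genes the MCAO libraries lay near the control, with log2 fold changes over it of 0.06 and 0.15. All 4 sham libraries of Fos and 2 of Junb were below every control library. The 2 of Junb were B and D, which are among the 5 libraries low in Ctnnd1.

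Nr4a1 at day 7 read 41.5, 45.8, 60.1, 43.2 and 67.0 CPM after MCAO and 31.5, 2.33, 30.5 and 1.82 CPM in sham. The low pair are sham day 7 B and D, which are among the 5 libraries low in Ctnnd1. All 4 sham libraries were below every control library, and 0 of the 5 MCAO libraries were above every control library. The means were 51.5 CPM after MCAO, 58.4 CPM in the control and 16.5 CPM in sham. Over sham the log2 fold change was 1.68 (SE 0.66, adjusted p = 0.103) and 0.73 (adjusted p = 0.621) without the 5. Over all times Nr4a1 was between 1.76 and 2.33 CPM in these 5 and at least 10.2 CPM in the other 43, and at 12 h its difference of -0.92 became -0.58 without them. Without them Fos stayed at 1.41 (adjusted p = 0.395) and Junb went to 0.76 (adjusted p = 0.472), with 2 sham libraries left at day 7, and the number of all genes called at day 7 went from 698 to 53. Against 3 h, 0 of the 10 differed by edgeR or DESeq2 (0.16% of all genes called by edgeR), with 2 at an unadjusted p under 0.05 (Fosb and Npas4) beside 15.7% of all genes.

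**Figure D4:**
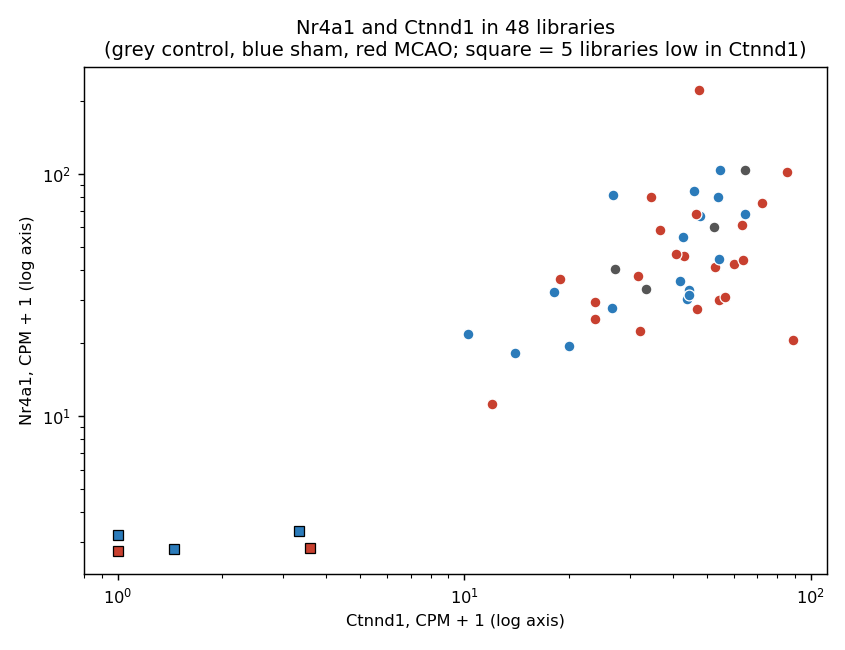
Nr4a1 against Ctnnd1 (CPM + 1, log axes) in 48 libraries (grey control, blue sham, red MCAO), with squares for the 5 libraries low in Ctnnd1. The squares lie at 1.76 to 2.33 CPM of Nr4a1, apart from the other 43.

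Sham surgery was set against the control to show the background of the operation. At 3 h after sham surgery Fosb was above every control library in 3 of 4 libraries, with a log2 fold change of 0.79 (SE 0.60, adjusted p = 1.00), and 0 of the 10 were called by edgeR or DESeq2 (0 at an unadjusted p under 0.05, beside 3.69% of all genes, with 0% of all genes called by edgeR and 0 genes by DESeq2). In the later shams 0 of the 10 were called at any time by either tool, beside 0.0351% of all genes at 12 h, 0.01% at 24 h, 0% at day 3 (1 gene by DESeq2) and 0% at day 7 (0 genes by DESeq2). The number with an unadjusted p under 0.05 was 1 at 12 h and 1 at 24 h (Ier2 both times), 0 at day 3 and 5 at day 7 (Fos, Junb, Egr1, Arc and Nr4a1), beside 5.43%, 4.31%, 3.66% and 8.03% of all genes. All 10 fitted changes were below 0 at 24 h and at day 7, with medians of -0.67 and -0.94. Sham day 7 B and D are among the 5 libraries low in Ctnnd1, and without the 5 the day 7 changes ran from -1.35 for Fos to -0.32 for Egr2, with Junb at -0.60, Egr1 at -0.37, Arc at -0.68 and Nr4a1 at -0.91 (adjusted p = 1.00 for each by edgeR). Ier2, an early response nuclear protein, was 3.56, 0.632, 0.610 and 2.62 CPM at 24 h after sham and 6.70, 2.81, 11.3 and 7.42 CPM in the control (-1.87, SE 0.66, adjusted p = 0.924), on 1 to 6 counts a library in sham.

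Against the control, 0 of the 10 were called at 12 h, 24 h, day 3 or day 7 after MCAO by edgeR or DESeq2, beside 0.856%, 0.28%, 3.1% and 1.5% of all genes by edgeR. At an unadjusted p under 0.05 there was 1 at 12 h (Nr4a1), beside 16% of all genes, 0 at 24 h (11%), 2 at day 3 (Fosb and Npas4, 19.8%) and 1 at day 7 (Egr1, 14.9%). The members were at 0 counts in a pair of values: Egr2 in sham 24 h A, where a count of 0 allows up to 1.78 CPM, and Ier2 in MCAO 12 h A, up to 1.11 CPM, for counting error only.

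Genes around the 10 were taken from 4 lists. Of 15 other immediate early regulators 2 rose over sham at 3 h, where 0.11% of all genes were called and 8.45% had an unadjusted p under 0.05. These were Maff, a small Maf factor of the stress response, by 3.76 on the log2 scale (SE 0.77, adjusted p = 0.00963), and Csrnp1, an AXIN1-induced nuclear protein, by 1.83 (SE 0.31, adjusted p = 0.00132). Of 14 activity-regulated effectors 3 rose: Gadd45b, a stress-inducible regulator of DNA demethylation, by 2.52 (SE 0.40, adjusted p = 3.03e-04), Nptx2, a pentraxin that clusters AMPA receptors, by 2.45 (SE 0.42, adjusted p = 0.00132), and Rgs2, which damps G protein signalling, by 1.47 (SE 0.30, adjusted p = 0.00963). All 14 were above 0, with a median of 0.74. Of 8 AP-1 partners 0 were called by edgeR (4 at an unadjusted p under 0.05, 2 by DESeq2) with a median of 1.37, and of 9 upstream factors such as Creb1 and Srf 0 (1 at an unadjusted p under 0.05 and 0 by DESeq2) with a median of -0.03. Among the AP-1 partners in that median, Batf (1.98) had no usable SE and Fosl1 (1.78) had an SE of 1.48. The median over all genes was 0.00.

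**Figure D5:**
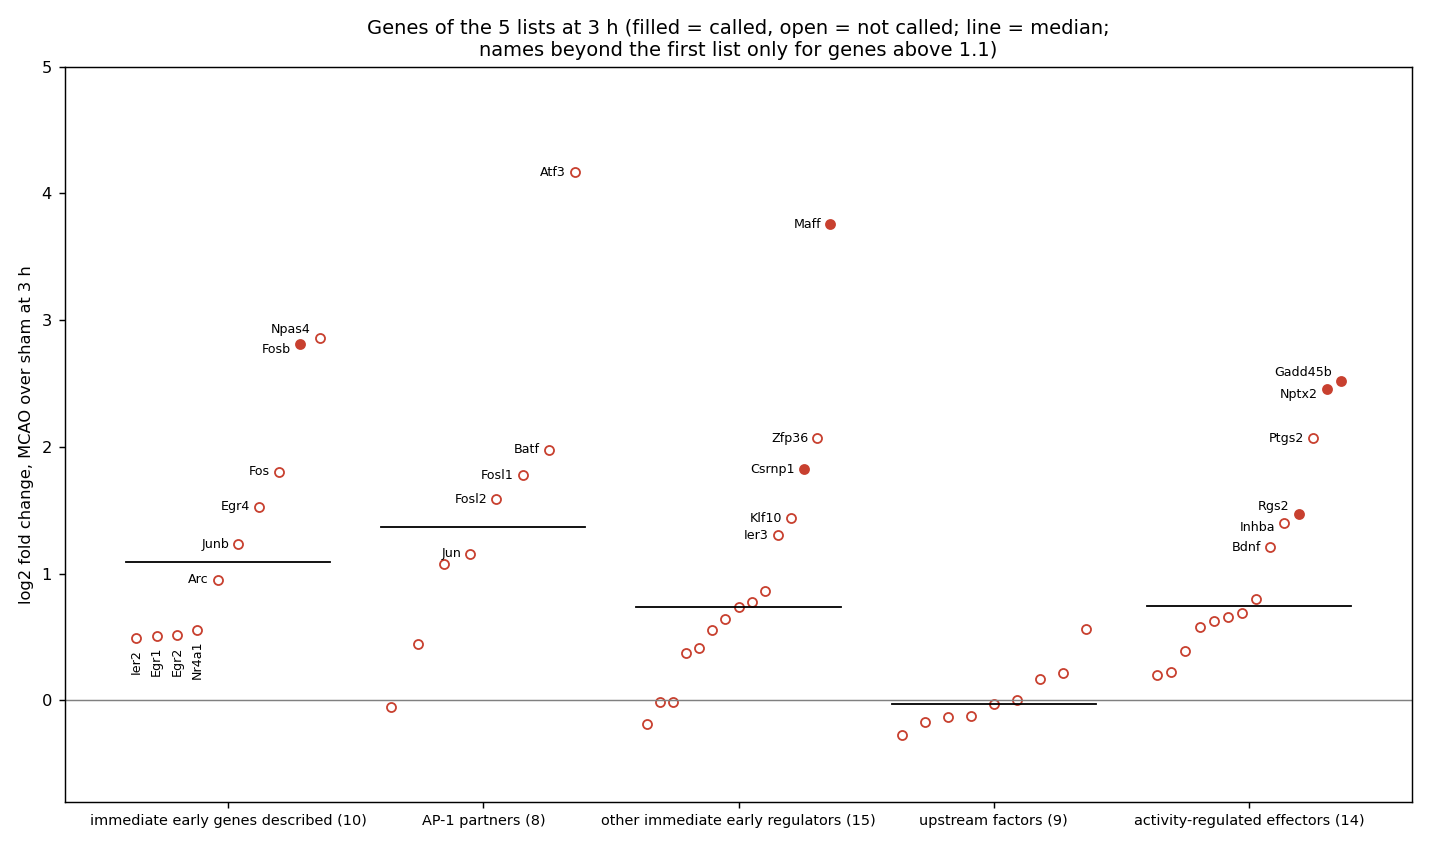
Fitted log2 fold changes of MCAO over sham at 3 h for the 10 genes and 4 related lists (points, filled where called, with a line at each median and the number of genes in brackets). Called genes are Fosb, Maff, Csrnp1, Gadd45b, Nptx2 and Rgs2, and the upstream factors lie around 0, with a median of -0.03.

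At 12 h Ier3, an early response gene that protects against cell death, was the single called gene of the 4 lists, higher by 1.87 (SE 0.40, adjusted p = 0.00796). Without the 5 libraries low in Ctnnd1 it was 2.07 (SE 0.46, adjusted p = 0.0125) and no longer called. Neutrophil and fibroblast marker sums were higher after MCAO at 12 h with no overlap, and their part was not tested. At 24 h 0 genes of any of the 4 lists were called by edgeR (3 AP-1 partners, 4 other regulators, 0 upstream factors and 5 effectors at an unadjusted p under 0.05, and 1 other regulator by DESeq2), beside 0.0901% of all genes called by edgeR, 8.8% at that p and 44 genes by DESeq2. The later calls are named here after their values were seen. At day 3, where 4.02% of all genes were called, 0 of 8 AP-1 partners, 1 of 15 other regulators (higher), 0 of 9 upstream factors and 2 of 14 effectors (lower) were called, with medians of 0.87, 0.25, -0.09 and -0.18 beside 0.01 over all genes. Ier3 rose by 1.64 (adjusted p = 0.00462) while Homer1, a postsynaptic scaffold, fell by 0.81 (adjusted p = 0.00281) and Nrn1, a neurite growth factor, fell by 0.79 (adjusted p = 0.00234). At day 7, where 3.5% of all genes were called, 1 of 8 AP-1 partners (higher), 0 of 15 other regulators, 2 of 9 upstream factors (1 higher and 1 lower) and 1 of 14 effectors (lower) were called, with medians of 1.21, 0.22, 0.08 and 0.31 beside 0.06 over all genes. Jun, the partner of the Fos proteins, rose by 1.45 (SE 0.29, adjusted p = 8.17e-04) and Mef2a by 0.63 (adjusted p = 0.00573), and Mef2c, a neuronal transcription factor, fell by 0.91 (adjusted p = 0.00141) and Homer1 by 0.84 (adjusted p = 0.00273). Without the 5 libraries low in Ctnnd1 none of the 4 was called, with Jun at 1.42 (adjusted p = 0.0408), Mef2a at 0.55 (adjusted p = 0.0575), Mef2c at -0.91 (adjusted p = 0.0359) and Homer1 at -0.76 (adjusted p = 0.0783). In that fit the AP-1 partners Fosl1 (2.66) and Batf (3.97) had no usable SE at day 7. Neuronal and cortical marker sums were lower after MCAO at these times, with medians of 6419 and 714 CPM against 9037 and 1026 CPM in sham at day 3 and 7418 and 713 CPM against 8927 and 1206 CPM at day 7. Fibroblast markers had medians of 358 against 92.0 CPM at day 3 and 405 against 69.9 CPM at day 7, and microglial markers of 1478 against 366 CPM and 1034 against 453 CPM. Their part in these results was not tested.

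Outside the 10, the genes most like their mean pattern over the 48 libraries were ranked by Pearson r among 11730 genes of at least 5 CPM, as a description in which the points share group, depth and library quality. The first 8 were Dusp1, a phosphatase that switches off MAP kinases (r = 0.82), Fosl2, another AP-1 subunit (0.80), Tiparp (0.79), Tet3, a methylcytosine dioxygenase (0.79), Bcor, a corepressor of BCL6 (0.79), Plpbp (0.78), Arl4d (0.76) and Errfi1, an inhibitor of the EGF receptor (0.75). Of these Bcor was called at 3 h, at 74.9 ± 24.8 CPM after MCAO against 26.0 ± 5.75 CPM in sham (log2 fold change 1.51, SE 0.27, adjusted p = 0.00317). Fosl2 was 158 ± 68.2 against 52.4 ± 22.5 CPM (1.59, SE 0.33, adjusted p = 0.0117). The members' own r with that mean, which contains them, ran from 0.67 for Ier2 to 0.90 for Fos. Taken singly, Fosb was nearest to Fos (r = 0.82) and Npas4 to Egr4 (0.77), while Nr4a1 was nearest to Sf1 and Prkci (both 0.88), genes outside the group. Without the 5 libraries low in Ctnnd1, in which Nr4a1 was also lowest, these fell to 0.66 and 0.67 over 43 libraries, and Nr4a1 was nearest to Egr4 (0.75) and Nr4a3 (0.74), so its ranking over all libraries rests on the 5. Over the 43 libraries the 8 genes had r of 0.69 (Arl4d and Errfi1) to 0.79 (Bcor).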

How the data were processed

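The authors sequenced QuantSeq 3′ libraries, aligned the reads with STAR 2.5.2b to GRCm38 and deposited raw htseq-count counts per gene (Gencode vM8), 1 file for each of 48 libraries, with 92 ERCC spike-ins. The strand setting of the counting is not given in the sources used here. Rows for unassigned reads, as shares of all rows of a file (no feature 21.1% to 30.6%, ambiguous 0.343% to 0.475%, not unique 24.0% to 37.3%) and spike-ins stayed out of library sizes. No libraries were identical.

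Groups came from the labels. Genes with more than 10 counts in all (19970) were fitted in 1 edgeR 4.0.16 quasi-likelihood model (R 4.3.3, TMM, 11 groups, all libraries), with Benjamini-Hochberg adjusted p under 0.01 and log2 fold change beyond 0.58 as a call. DESeq2 1.42.0, other scalings and filters, a replicate block and each library left out were alternatives. On data simulated for MCAO against sham at 3 h (19644 genes), 37% of genes changed by 1 and 86% of those changed by 2 on the log2 scale were called, and 0 unchanged ones. The changed genes were drawn at random from those of at least 5 CPM on average, each with its own spread. These shares therefore do not give how often the 10 members would be called. Positions and promoters are of GRCm38. Summaries used Python 3.11.15. The 10 genes, the lists and the markers were chosen with earlier results of these data known. Named genes were the 10 members, called genes of the lists at 3 h and 12 h and the 8 genes most like the members' mean pattern. List genes called at day 3 and day 7, Ctnnd1 and the genes nearest to single members were named after their values were seen.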

Additional observations from a re-analysis of the deposited data

Results flagged for a closer look

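In 14 of the 110 sets of values checked (10 genes in 11 groups), the gap between 1 library and the next was large for the range of its group. The rule flags about 1 in 20 sets of independent, normally distributed values. The sets here are CPM of genes that vary together in the same libraries, so the 14 cannot be set against that rate. MCAO 24 h D was the highest for Npas4 (124 CPM, the next library 15.7), Fos (75.8, next 12.6), Egr1 (392, next 216) and Egr4 (180, next 63.6). MCAO day 3 D was the highest for Npas4 (186 CPM, next 17.2) and Junb (201, next 114), and MCAO 3 h A for Npas4 (366 CPM, next 66.6) and Junb (468, next 201). These 3 libraries also had the highest striatal marker sums of their groups, 4087, 2692 and 2394 CPM. Sham 12 h A (2216 CPM, a library low in Ctnnd1), MCAO day 7 A (1986 CPM) and sham 3 h D (1534 CPM) likewise had the highest sums of their groups. They were the lowest of their groups for 10, 6 and 4 of the 10 genes. In the remaining groups the highest sums were in control B, MCAO 12 h D, sham 24 h B, sham day 3 B and sham day 7 B. In that order, these were the highest of their groups for 0, 1, 1, 2 and 3 genes and the lowest for 2, 2, 0, 1 and 1. The part of the striatal sums was not tested.

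Single values stood apart in MCAO 12 h C for Arc (242 CPM, next 69.1), MCAO 12 h E for Egr2 (13.7 CPM, next 3.13), MCAO day 7 E for Egr1 (308 CPM, next 188) and sham 12 h C for Ier2 (4.44 CPM, next 2.09). On the low side were sham day 3 D for Junb (37.9 CPM, next 91.0) and sham day 3 B for Npas4 (14.3 CPM, next 16.4). The last rests on 31 counts against 35 to 46 in the other 3, and Ier2 in sham 12 h C on 12 against 3 to 5, so both gaps are between small counts.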

How the results depend on the processing

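With each of the alternatives in place of the main settings, 878 of 900 log2 fold changes of the 10 genes over sham and of sham over control kept their direction and their side of the threshold. Leaving out 1 library at a time, 771 of 840 did. Of the 100 gene comparisons, only 1 (Fosb over sham at 3 h) was called with the main settings. For the rest the side of the threshold could change only by a gained call, so these totals say little of the call itself. The number of the 10 called over sham at 3 h was 1. It was 4 with no filter on low counts (Fosb, Fos, Egr4 and Npas4) and 0 with the striatal sum as a covariate, an alternative chosen after seeing the data, and 0 to 1 over the 9 libraries left out. Over the control at 3 h it was 1, and it was 2 by DESeq2, which called 80 of all genes there. It was 5 with no filter (Fos, Fosb, Junb, Egr4 and Npas4) and 1 to 2 over the 9 libraries left out. With no filter 1 gene (Egr4) passed for the change from 3 h to day 3. The cause of these moves was not tested.

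The values that changed sign were all uncalled. Without the 5 libraries low in Ctnnd1, also chosen after seeing the data, they were 0.078 for Egr2 at 12 h, and at day 7 -0.17 for Arc, 0.45 for Npas4 and -0.27 for Ier2, and in sham over control at 12 h 0.21 for Fosb, 0.13 for Egr1 and 0.16 for Egr4. With the striatal covariate they were 0.15 for Fosb and 0.039 for Egr2 at 12 h, -0.11 for Egr4 at 24 h, 0.19 for Npas4 at day 7 and 0.043 for Egr1 in sham over control at 3 h. With scaling to the spike-ins they were -0.11 for Ier2 at day 3, 0.13 for Npas4 and 0.038 for Egr1 at day 7, and -0.028 for Junb in sham over control at day 3. By DESeq2 Npas4 was 0.022 at day 7. Leaving out 1 library changed the sign of 63 values in 33 of 100 gene comparisons, with these ranges of log2 fold change. For MCAO against sham at 12 h, Fosb -0.40 to 0.22, Egr2 -1.05 to 0.58, Arc -0.35 to 0.73, Nr4a1 -1.32 to 0.054 and Ier2 -0.60 to 0.87. For MCAO against sham at 24 h, Egr1 -0.16 to 0.22, Egr2 -0.20 to 1.59, Egr4 -0.52 to 0.26, Npas4 -0.12 to 2.13 and Nr4a1 -0.19 to 0.73. For MCAO against sham at day 3, Arc -0.085 to 0.60, Npas4 -0.84 to 1.78 and Ier2 -0.044 to 0.36. For MCAO against sham at day 7, Egr1 -0.24 to 0.18, Arc -0.016 to 0.45, Npas4 -0.55 to 0.17 and Ier2 -0.16 to 0.53. For sham at 3 h against control, Fos -0.070 to 0.52, Egr1 -0.14 to 0.066, Nr4a1 -0.15 to 0.58 and Ier2 -0.59 to 0.059. For sham at 12 h against control, Fosb -0.41 to 0.21, Egr1 -0.35 to 0.13, Egr2 -0.29 to 0.69, Egr4 -0.29 to 0.17 and Npas4 -0.0021 to 0.87. For sham at 24 h against control, Junb -0.34 to 0.041 and Npas4 -0.59 to 0.024. For sham at day 3 against control, Fos -0.36 to 0.24, Fosb -0.041 to 0.34, Junb -0.16 to 0.28 and Nr4a1 -0.070 to 0.55. For sham at day 7 against control, Npas4 -0.31 to 0.13.

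Of 20 pairs of the same letter in MCAO and sham, 8 had deviations correlated above 0.1, and the range was -0.34 to 0.19. No values for unlike letters are given, so these do not settle whether the replicate letters pair the libraries. With the letter as a replicate block, Fosb at 3 h was 2.84 (adjusted p = 0.00444), Npas4 at day 7 changed sign to 0.30, and the number of all genes called went from 82 to 53 at 12 h.

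Counts over all genes moved more. Over sham at 3 h they were 22, and 14 with spike-in scaling, 44 with only the compared groups and 58 both by DESeq2 and with no filter. At 12 h they were 82, and 13 with only the compared groups, 35 with the striatal covariate, 171 with no filter and 179 by DESeq2. At 24 h they were 18, and 39 with spike-in scaling, 44 by DESeq2, 51 with only the compared groups and 55 with no filter. At day 3 they were 802, and 339 with only the compared groups. At day 7 they were 698, and 53 without the 5 libraries low in Ctnnd1, 302 with only the compared groups and 1096 by DESeq2. Spike-in scaling moved the median of all genes over sham by -0.10, -0.09, 0.14, -0.22 and 0.14 at the 5 times, and higher calls were then 9 of 14 at 3 h (18 of 22 otherwise), 463 of 594 at day 3 (750 of 802) and 403 of 489 at day 7 (413 of 698). With under 10 counts in 29 and 26 libraries, Egr2 and Ier2 are the members depth limits most.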
